A study of Mus musculus with 38 samples.

Results

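The pyruvate dehydrogenase kinases and phosphatases were followed in left ventricle RNA-seq of a mouse model of HFpEF, the form of heart failure in which the ejection fraction is preserved. The 7 genes were taken by name: the kinases Pdk1, Pdk2, Pdk3 and Pdk4, the phosphatase catalytic subunits Pdp1 and Pdp2, and the phosphatase regulatory subunit Pdpr. They are 7 of the 29564 genes listed and 7 of the 13765 that passed the filter on low counts. The series held 38 libraries, 1 per mouse. All mice were wild-type C57BL6, given as C57BL/6J in the study's methods. The non_failing group (n = 8) was fed standard chow and given vehicle. The other groups all received a high-fat diet and L-NAME, an inhibitor of nitric oxide synthase, and were then given vehicle (HFpEF+Veh, n = 8), TYA-018, an inhibitor of the deacetylase HDAC6 (HFpEF+TYA-018, n = 11), or empagliflozin, an inhibitor of the renal glucose transporter SGLT2 (HFpEF+SGLT2i, n = 11). The non_failing group therefore differs from HFpEF+Veh in both diet and L-NAME, and these cannot be told apart. The labels give the mice as female and the study's methods as male, and the length of treatment also differs between these sources, so neither is used here.

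The pyruvate dehydrogenase (PDH) complex turns pyruvate from glucose and lactate into acetyl-CoA inside mitochondria, and so sets how much carbohydrate the heart burns in place of fat. The kinases phosphorylate its E1 alpha subunit and switch the complex off, and the phosphatases remove the phosphate and switch it on again. Pdk4 is the kinase whose transcript is known to rise in fasting, diabetes and high-fat feeding, when fatty acids activate peroxisome proliferator-activated receptors (PPARs). Pdk2 is widely expressed, Pdk1 is known as a target of hypoxia-inducible factor, and Pdk3 is mainly known from testis and brain. Pdp1 is the calcium-stimulated phosphatase of muscle, Pdp2 is known from liver and fat as the phosphatase that responds to insulin, and Pdpr lowers the sensitivity of Pdp1 to magnesium.

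The genes lie on 6 chromosomes of the mouse assembly GRCm38. Pdk1 spans chr2:71873224-71903858 on the plus strand, Pdk2 chr11:95026258-95041354 on the minus strand, Pdk3 chrX:93764607-93832201 on the minus strand and Pdk4 chr6:5483351-5496309 on the minus strand. Pdp1 spans chr4:11958184-11966452 on the minus strand, while Pdp2 (chr8:104591451-104599026) and Pdpr (chr8:111094630-111137074) share chromosome 8 on the plus strand. Promoters of 6 of the 7 genes were found in RefSeq (GRCm38.p6), as the 250 bases before the start site. Pdp1 was not matched. The promoters of Pdk4 and Pdp2, whose levels changed with treatment, are shown with those of Pdk2, the other abundant kinase, and Pdpr, because Pdk2, Pdp2 and Pdpr share a motif. Each is written 5′ to 3′ on the strand of the gene, and capitals mark a CACGTG match, the E-box.
Pdk4 (chr6:5496279-5496528, minus strand): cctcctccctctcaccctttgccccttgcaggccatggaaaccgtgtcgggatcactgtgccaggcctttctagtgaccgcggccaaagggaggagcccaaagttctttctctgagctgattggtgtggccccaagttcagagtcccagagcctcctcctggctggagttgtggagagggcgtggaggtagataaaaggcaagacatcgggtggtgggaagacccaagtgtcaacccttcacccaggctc
Pdk2 (chr11:95041372-95041621, minus strand): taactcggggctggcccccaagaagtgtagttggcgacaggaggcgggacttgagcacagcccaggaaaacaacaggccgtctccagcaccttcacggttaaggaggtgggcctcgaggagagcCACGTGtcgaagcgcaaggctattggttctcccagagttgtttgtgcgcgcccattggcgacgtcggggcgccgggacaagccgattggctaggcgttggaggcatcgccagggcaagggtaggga
Pdp2 (chr8:104591222-104591471, plus strand): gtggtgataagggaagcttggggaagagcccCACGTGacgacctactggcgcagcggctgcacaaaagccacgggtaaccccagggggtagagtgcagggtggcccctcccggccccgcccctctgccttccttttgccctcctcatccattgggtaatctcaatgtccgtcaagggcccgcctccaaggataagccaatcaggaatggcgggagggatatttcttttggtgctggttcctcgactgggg
Pdpr (chr8:111094495-111094744, plus strand): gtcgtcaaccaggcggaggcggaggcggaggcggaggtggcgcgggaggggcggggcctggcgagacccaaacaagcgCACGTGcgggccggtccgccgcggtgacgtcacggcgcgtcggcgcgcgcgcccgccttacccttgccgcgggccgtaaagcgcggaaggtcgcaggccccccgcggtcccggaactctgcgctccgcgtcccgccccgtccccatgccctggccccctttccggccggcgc
Motifs were searched on both strands. CACGTG, which reads the same on both strands, was found in 3 of the 6 promoters, against 6.02% of the 32851 mouse promoters of that length. It began 126 bases before the start in Pdk2, 219 bases before it in Pdp2 and 172 bases before it in Pdpr. The shorter ACGTG, the core of the hypoxia-inducible factor site, lies within CACGTG on both strands. It was in those 3 promoters and in that of Pdk3, and in 16.6% of all promoters. None of the 6 promoters held AGGTCA, the core site of nuclear receptors, and so none held AGGTCANAGGTCA, its direct repeat with 1 base between, or TCAAGGTCA. Of all promoters, 14.0% held AGGTCA, 0.0335% the direct repeat and 0.387% TCAAGGTCA. GTAAACA, the core of the FoxO site, and AGAACA, an arm of the glucocorticoid receptor site, were also in none of the 6, against 3.17% and 16.1% of all promoters. A match is a description of these letters, and a missing match says only that the letters are not in this window.

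Depth ran from 21.5 to 59.3 M estimated reads per library, with group medians of 28.8 to 29.8 M. The heart label was checked with 8 cardiomyocyte markers. All 8, such as Myl2 and Tnnt2, were detected in every library, and their summed level was 15339 to 29356 TPM, a unit scaled for transcript length and library total. Library HFpEF+Veh V2523 stood apart through liver transcripts. The summed level of 8 hepatocyte markers was 846 TPM there, and V2523 held the highest value of its group for all 8. The range of this sum was 12.5 to 202 TPM in non_failing, 0.83 to 846 TPM in HFpEF+Veh, 0.26 to 1.88 TPM in HFpEF+TYA-018 and 0.19 to 5.03 TPM in HFpEF+SGLT2i. Where a member passed the test in a comparison that involves vehicle, the result is therefore given with and without V2523. No other member passed such a test once V2523 was left out. HFpEF+Veh V2532 stood apart through transcripts of fast skeletal muscle, with the highest level in its group of 5 of 7 skeletal muscle markers. Myh4, a fast myosin, was 7.84 TPM there against a group median of 0, and Tnnt3, a fast troponin, was 16.9 TPM against 0.57. V2532 is named beside the results it decides. All values are from whole ventricle, in which fewer cells of a type and less RNA per cell cannot be told apart.

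Pdk4 was the member that differed most between groups. Its level in TPM, which is scaled for transcript length, was 74.7 ± 17.3 in non_failing, 126 ± 45.2 in HFpEF+Veh, 142 ± 40.5 in HFpEF+TYA-018 and 215 ± 67.5 in HFpEF+SGLT2i (mean ± SD, n = 8, 8, 11 and 11). The lowest, median and highest libraries held 52.7, 73.1 and 102 TPM in non_failing, 77.3, 115 and 219.9 TPM in HFpEF+Veh, 80.1, 128 and 209 TPM in HFpEF+TYA-018, and 138, 213 and 385 TPM in HFpEF+SGLT2i. Every HFpEF+SGLT2i library thus lay above every non_failing library, and the other pairs of groups overlapped. The highest vehicle value belonged to V2523, and the other 7 vehicle libraries ended at 156 TPM in V2532.

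**Figure D1:**
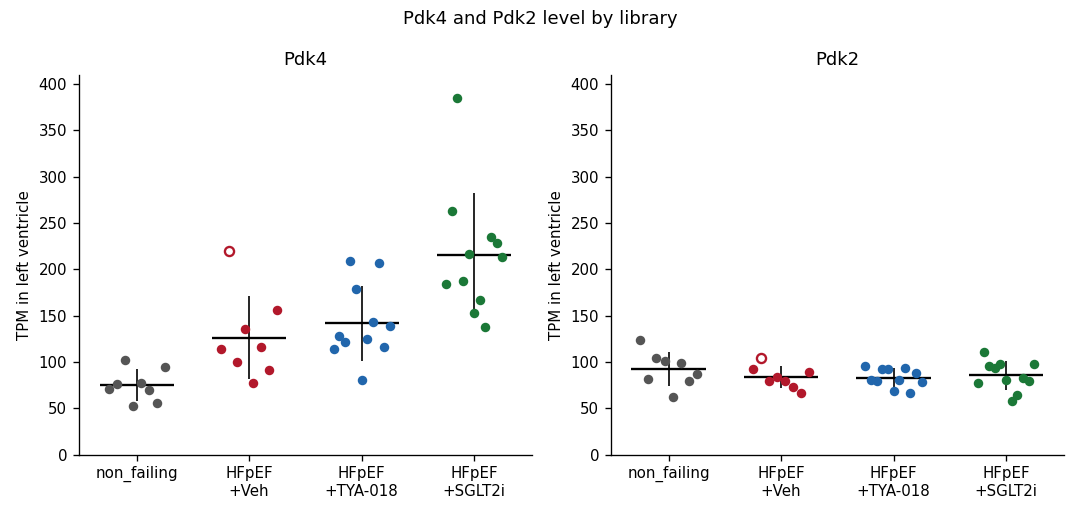
Level of Pdk4 (left) and Pdk2 (right) in TPM, 1 point per library, by group. Horizontal lines are group means, vertical lines ± 1 SD, and the open point is HFpEF+Veh V2523. All 11 HFpEF+SGLT2i libraries lie above all 8 non_failing libraries for Pdk4, while the groups overlap for Pdk2.

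The comparison of HFpEF+SGLT2i with HFpEF+Veh asks what the SGLT2 inhibitor changed in diseased hearts. Pdk4 rose 1.82-fold, which is 0.86 ± 0.19 on the log2 scale (SE, 95% interval 0.49 to 1.23, adjusted p = 0.00865 by the quasi-likelihood test of edgeR). All 11 libraries lay above the vehicle mean of log2 CPM, and 4 lay above the highest vehicle library in TPM. CPM is reads scaled to the library total after adjusting that total by its TMM factor. Counts of libraries above or below a mean use log2 CPM from here on. In this comparison 0.85% of all genes were called at an adjusted p under 0.05, and 0.131% were called higher, against 2 of the 7 members, both higher. Without V2523 the log2 fold change of Pdk4 was 1.00 ± 0.18 (adjusted p = 0.0264), and 9 of 11 libraries lay above the highest vehicle library. Only 2 genes, or 0.0145%, were then called among all genes, and they were Pdk4 and Ucp3, a mitochondrial uncoupling protein of muscle. The call for Pdk4 was kept when each of the 38 libraries was left out in turn, with adjusted p from 0.00532 to 0.0264. It was lost when the libraries of the other groups were left out of the model (adjusted p = 0.167) and with limma on log2(TPM + 1) (adjusted p = 0.133), at log2 fold changes of 0.85 and 0.80. These settings called 3 genes and 0 genes in all, and 1143 and 1356 genes had an unadjusted p under 0.05.

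The comparison of HFpEF+Veh with non_failing gives the change with the disease model. Pdk4 was higher by 0.68 ± 0.20 on the log2 scale, with a 95% interval of 0.28 to 1.07 and an adjusted p of 0.0457 that lies just under the threshold. All 8 vehicle libraries lay above the non_failing mean, and 5 lay above the highest non_failing library. Of all genes, 3.15% were called, against 1 of the 7 members. Without V2523 the difference was 0.54 ± 0.19 and was no longer called (adjusted p = 0.102), while 4.49% of all genes were called and no member. The call was kept in 17 of 38 fits that each left out 1 library, with adjusted p from 0.029 to 0.105 and log2 fold changes from 0.54 to 0.74. The highest adjusted p came without non_failing V2504, which had the highest summed hepatocyte markers of its group (202 TPM). Over the 9 ways of fitting, it was called in 4, with adjusted p from 0.0186 to 0.162. The highest of these came without V2523 and V2532 together, at a log2 difference of 0.43. The call was also lost without V2532 alone. The direction was the same in all of these.

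Against the same non_failing libraries, Pdk4 rose by 0.92 ± 0.19 on the log2 scale in HFpEF+TYA-018 (1.89-fold, 95% interval 1.46 to 2.45, adjusted p = 0.00133), with 10 of 11 libraries above the highest non_failing library. It rose by 1.54 ± 0.19 in HFpEF+SGLT2i (2.90-fold, 95% interval 2.22 to 3.78, adjusted p = 5.65e-07). Pdk4 was the 1 member called in each, and 7.39% and 6.45% of all genes were called. Ranges of TPM that do not overlap between HFpEF+SGLT2i and non_failing were seen for 0.719% of all genes, and for 1 member, Pdk4. Both calls were kept in all 38 fits that left out 1 library and in all 9 ways of fitting.

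With TYA-018, Pdk4 did not pass the test against vehicle. The log2 difference between HFpEF+TYA-018 and HFpEF+Veh was 0.24 (95% interval -0.13 to 0.61, adjusted p = 0.507), or 0.38 (0.02 to 0.75, adjusted p = 0.23) without V2523. With all libraries, an increase of up to 0.61 could not be told from none, and without V2523 the interval lay above 0 although the adjusted p missed the threshold. Between the drugs, TYA-018 minus SGLT2i, Pdk4 had a log2 difference of -0.62 ± 0.17 (95% interval -0.95 to -0.28). It was below the HFpEF+SGLT2i mean in 10 of 11 libraries and below the lowest HFpEF+SGLT2i library in 6. The unadjusted p was 0.000663, at rank 82 of 13765 genes, and the adjusted p was 0.103, so the difference was not called. The edgeR test called 0.0% of genes between the drugs, although 1821 genes had an unadjusted p under 0.05. Limma called 0 genes and DESeq2 called 185, Pdk4 among them (adjusted p = 0.0312). Over the 9 ways of fitting, the adjusted p of Pdk4 ran from 0.0312 to 0.159.

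Pdk2 was the other abundant kinase, and no comparison called it. Its level was 92.3 ± 18.8 TPM in non_failing, 83.5 ± 11.6 in HFpEF+Veh, 83.1 ± 10.04 in HFpEF+TYA-018 and 85.4 ± 15.8 in HFpEF+SGLT2i. The lowest and highest libraries were 62.5 and 124 TPM in non_failing and 58.1 and 111 TPM in HFpEF+SGLT2i, so that the groups overlapped throughout. The difference between HFpEF+Veh and non_failing was -0.27 ± 0.12 on the log2 scale (95% interval -0.50 to -0.03, adjusted p = 0.232), with 7 of 8 vehicle libraries below the non_failing mean. Without V2523 it was -0.32 (adjusted p = 0.129). Against vehicle the differences were 0.15 (-0.07 to 0.37) with TYA-018 and 0.12 (-0.10 to 0.34) with SGLT2i, and changes of up to those bounds could not be told from none. The mean in TPM was slightly lower with TYA-018 than with vehicle while the log2 difference was above 0. The test scales libraries by TMM factors, which TPM does not use.

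Pdk1, the kinase that can phosphorylate every site of E1 alpha, was 15.9 ± 4.45 TPM in non_failing, 17.8 ± 6.08 in HFpEF+Veh, 18.1 ± 4.19 in HFpEF+TYA-018 and 19.6 ± 6.45 in HFpEF+SGLT2i. Its medians were 14.8, 16.1, 17.6 and 17.1 TPM, and its highest values were 33.0 TPM in HFpEF+SGLT2i V2562 and 30.3 TPM in HFpEF+Veh V2532. None of the 6 comparisons called Pdk1. The widest difference was that between HFpEF+SGLT2i and non_failing, at 0.30 (95% interval -0.04 to 0.64, adjusted p = 0.316). Pdk3 was close to the limit of detection, with 12 to 78 estimated reads per library and group means of 0.55 to 0.66 TPM. No comparison called it, and the 95% intervals of its 6 log2 differences ran from -0.48 at the lowest to 0.54 at the highest.

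Of the phosphatases, Pdp2 rose with both drugs. Its level was 2.77 ± 0.52 TPM in non_failing, 2.14 ± 0.60 in HFpEF+Veh, 2.91 ± 0.35 in HFpEF+TYA-018 and 3.07 ± 0.81 in HFpEF+SGLT2i, from 196 to 1150 estimated reads per library. The lowest, median and highest libraries were 2.17, 2.62 and 3.57 TPM in non_failing, 1.31, 2.13 and 3.18 in HFpEF+Veh, 2.35, 2.95 and 3.59 in HFpEF+TYA-018 and 1.68, 3.15 and 4.24 in HFpEF+SGLT2i. The groups overlapped, and the highest vehicle library was V2532, not V2523.

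In HFpEF+TYA-018 against HFpEF+Veh, Pdp2 was higher by 0.56 ± 0.14 on the log2 scale (1.47-fold, 95% interval 1.22 to 1.79, adjusted p = 0.0219), and all 11 libraries lay above the vehicle mean. It was the 1 member called, where 1.93% of all genes were. Without V2523 the difference was 0.59 ± 0.15 (adjusted p = 0.0343), with 1.42% of all genes called. Leaving out 1 library at a time kept the call in 36 of 38 fits and lost it without HFpEF+Veh V2528 or V2530, the vehicle libraries with the least Pdp2, where the adjusted p reached 0.0613. Of the 9 ways of fitting, limma on log2(TPM + 1) lost the call (adjusted p = 0.0764).

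In HFpEF+SGLT2i against the same vehicle libraries, Pdp2 was higher by 0.59 ± 0.14 (1.5-fold, 95% interval 1.24 to 1.82, adjusted p = 0.0210) in 10 of 11 libraries. Without V2523 the difference was as large, 0.61 ± 0.15, but the adjusted p was 0.123. It was also lost without V2528, V2530, V2564 or V2574, and in 4 of the 9 ways of fitting, with adjusted p up to 0.306. Between the drugs the difference was -0.03 (95% interval -0.28 to 0.22). Both drug comparisons use the same 8 vehicle libraries and are not independent of each other. In HFpEF+Veh against non_failing, Pdp2 was at -0.43 ± 0.15 (adjusted p = 0.0987), below the non_failing mean in 7 of 8 libraries and not called. Without V2523 it was at -0.46 (adjusted p = 0.0792). This difference was called when V2532 was left out (-0.54, adjusted p = 0.0237), in 1 of 38 such fits. The levels in HFpEF+TYA-018 and HFpEF+SGLT2i differed from non_failing by 0.13 (95% interval -0.15 to 0.40) and 0.15 (-0.12 to 0.43).

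Pdp1 was the more abundant phosphatase, at 6.26 ± 1.10 TPM in non_failing, 5.41 ± 1.29 in HFpEF+Veh, 5.81 ± 0.74 in HFpEF+TYA-018 and 5.14 ± 1.43 in HFpEF+SGLT2i. No comparison called it. The differences with the lowest p were those of HFpEF+SGLT2i against non_failing, at -0.32 ± 0.13 (95% interval -0.59 to -0.06, adjusted p = 0.147), and of HFpEF+Veh against non_failing, at -0.29 ± 0.14 (-0.58 to -0.01, adjusted p = 0.304). In these, 4 of 11 and 3 of 8 libraries lay below the lowest non_failing library. Without V2523 the difference of HFpEF+Veh against non_failing was -0.34 (adjusted p = 0.200). Against vehicle, the difference was 0.20 (-0.07 to 0.47) with TYA-018 and -0.03 (-0.30 to 0.24) with SGLT2i.

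Pdpr, the regulatory subunit, was 2.29 ± 0.93 TPM in non_failing, 1.86 ± 1.56 in HFpEF+Veh, 1.32 ± 0.44 in HFpEF+TYA-018 and 1.70 ± 0.89 in HFpEF+SGLT2i. A few libraries carried much of that spread. The highest value, 5.68 TPM in HFpEF+Veh V2532, compares with 1.10 to 1.62 TPM in the other 7 vehicle libraries, and non_failing V2503 held 4.3 TPM against at most 2.73 TPM in its group. The difference between HFpEF+TYA-018 and non_failing was -0.73 ± 0.27 on the log2 scale, with 11 of 11 libraries below the non_failing mean and 8 below its lowest library (adjusted p = 0.0873). It was not called. Of 38 fits that left out 1 library, 1 called it, that without V2532 (adjusted p = 0.0287). V2532 is a vehicle library and in neither group of this comparison. Without non_failing V2503 the difference was -0.56 (adjusted p = 0.242). HFpEF+Veh against non_failing gave -0.40 ± 0.29 (adjusted p = 0.525) with all libraries and -0.85 (adjusted p = 0.0361) without V2532. It was -0.24 (adjusted p = 0.769) without V2503 and -0.33 (adjusted p = 0.566) without V2523. Of 38 fits that left out 1 library, 1 called this difference, that without V2532.

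**Figure D2:**
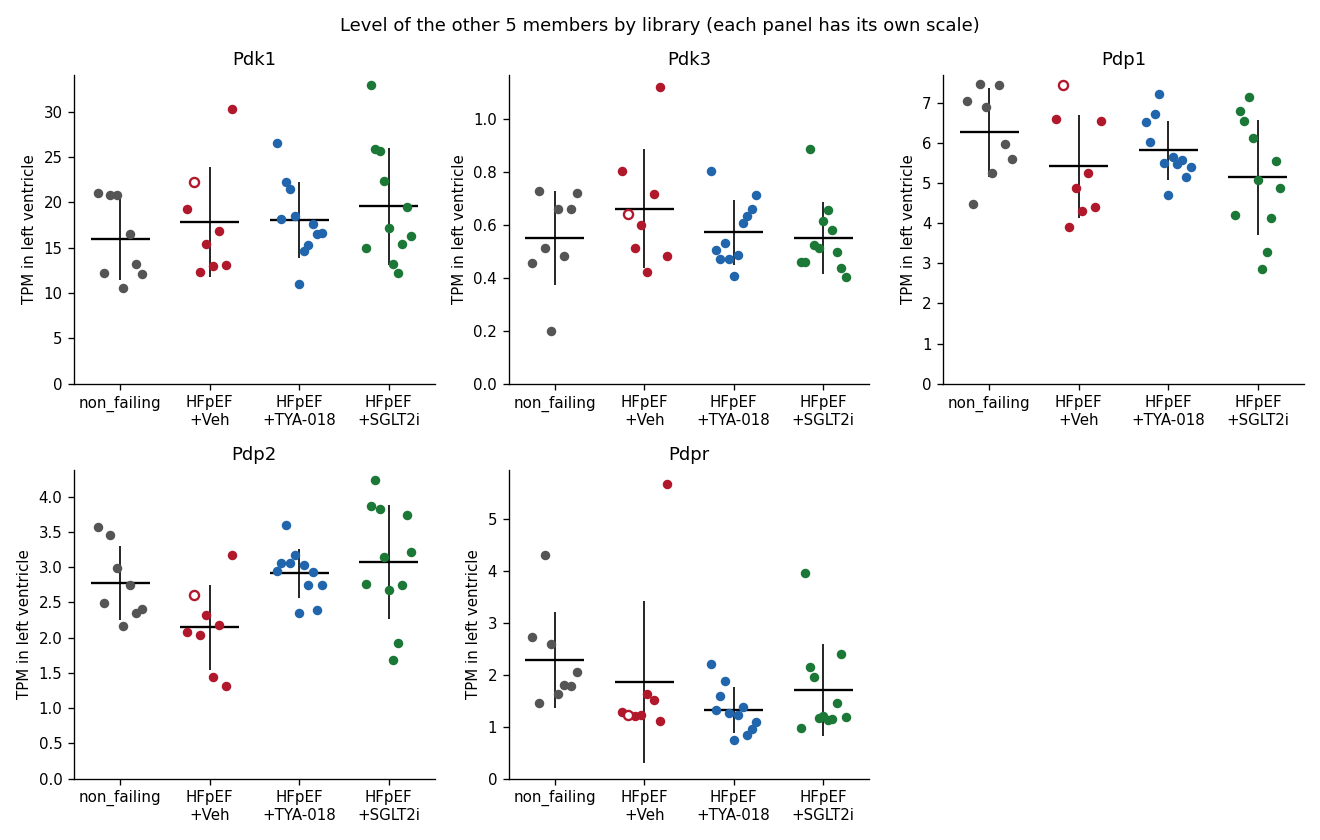
Level of Pdk1, Pdk3, Pdp1, Pdp2 and Pdpr in TPM, 1 point per library, by group, with a vertical scale of its own for each gene. Horizontal lines are group means, vertical lines ± 1 SD, and the open point is HFpEF+Veh V2523. Pdp2 is lowest on average in HFpEF+Veh (2.14 TPM), and 1 vehicle library stands far above the rest for Pdpr (5.68 TPM).

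**Figure D3:**
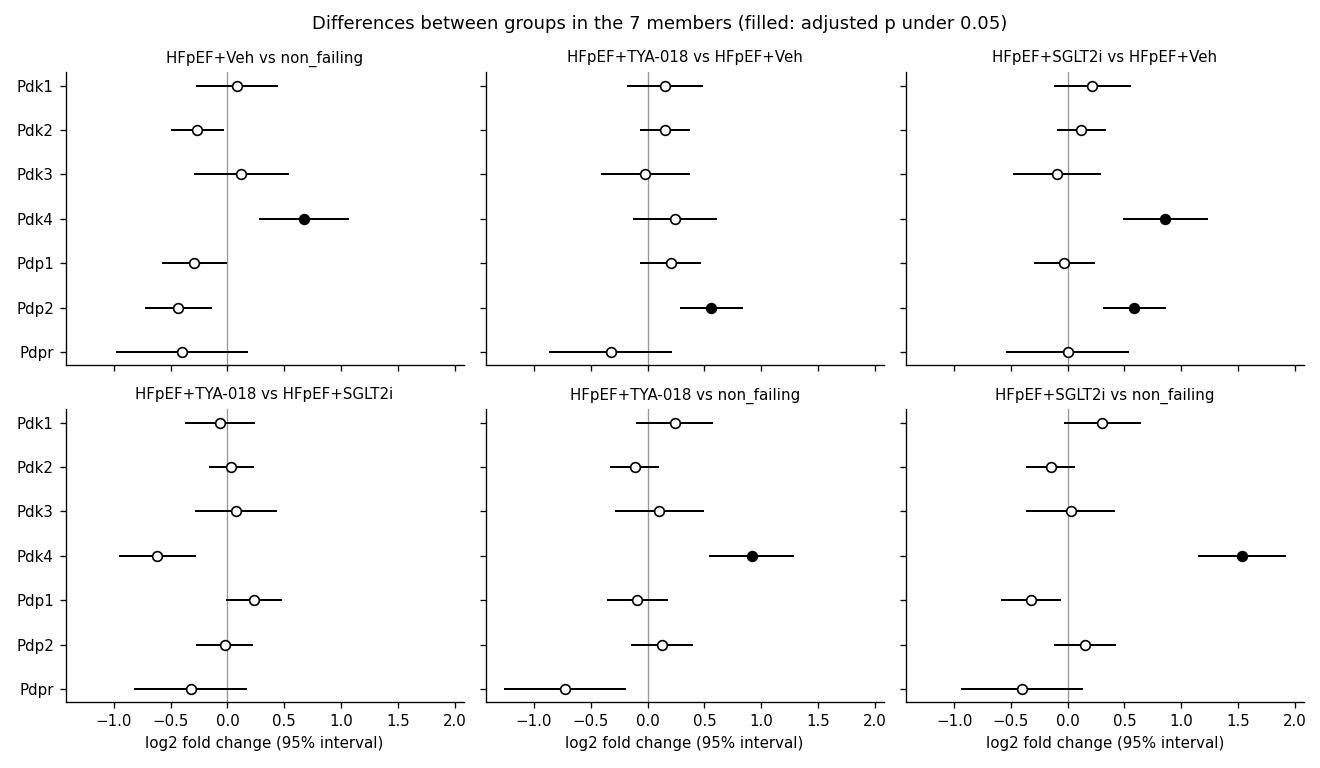
Log2 fold changes of the 7 members in the 6 comparisons from edgeR, with 95% intervals. Filled points passed an adjusted p under 0.05. Pdk4 is filled in 4 of the 6 comparisons and Pdp2 in both comparisons of a drug with vehicle.

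The makeup of the kinase pool was described from the same levels. Pdk4 made up 40.8 ± 7.7% of the summed kinase TPM in non_failing, 54.3 ± 5.4% in HFpEF+Veh, 57.4 ± 6.6% in HFpEF+TYA-018 and 66.5 ± 4.5% in HFpEF+SGLT2i. The share of Pdk2 was 50.2 ± 6.2%, 37.6 ± 5.4%, 34.9 ± 5.7% and 27.2 ± 3.8%, that of Pdk1 was 8.6 ± 1.8%, 7.8 ± 1.5%, 7.5 ± 1.7% and 6.1 ± 1.2%, and that of Pdk3 stayed at or under 0.65% in every library. In non_failing hearts Pdk2 was thus the leading kinase transcript, with Pdk4 above it in 2 of 8 libraries. Pdk4 was above Pdk2 in 7 of 8 HFpEF+Veh libraries and in all 11 libraries of each drug. The ranges of the Pdk4 share in HFpEF+SGLT2i (60.8 to 75.8%) and non_failing (30.1 to 51.2%) did not meet. Without V2523 the Pdk4 share in HFpEF+Veh was 53.0 ± 4.3%. The shares were not tested, since they are made from the members themselves.

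**Figure D4:**
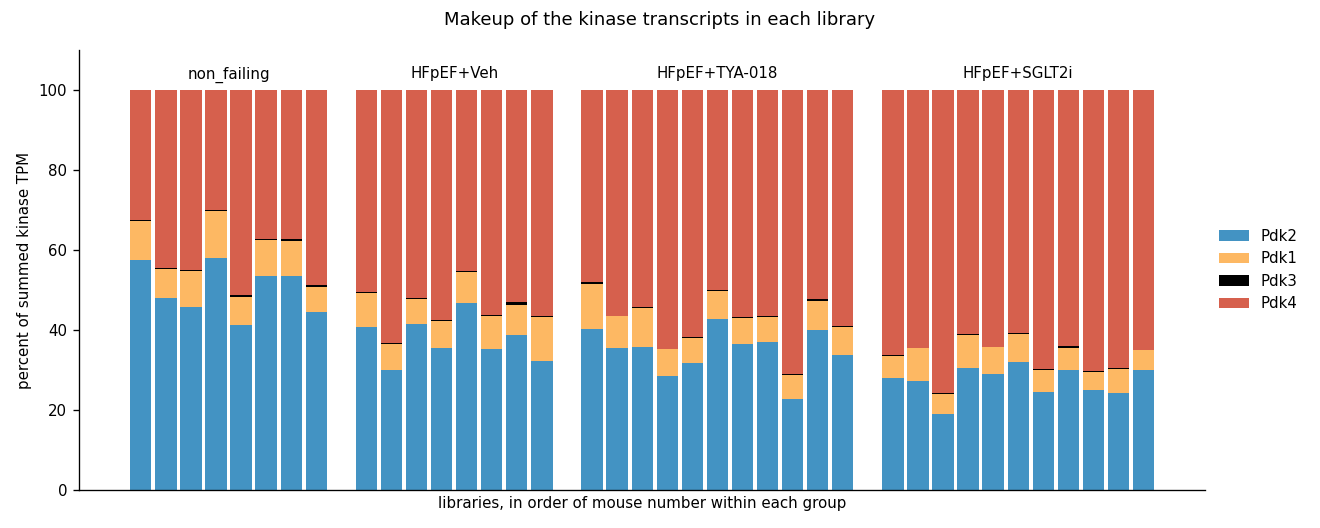
Share of each kinase in the summed TPM of Pdk1, Pdk2, Pdk3 and Pdk4, 1 bar per library, in 4 groups. The Pdk4 part (top) has a mean of 40.8% in non_failing and 66.5% in HFpEF+SGLT2i, and the Pdk2 part (bottom) has means of 50.2% and 27.2%.

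The ratio of summed kinase to summed phosphatase TPM (Pdp1 and Pdp2) was 20.5 ± 2.7 in non_failing, 30.2 ± 2.8 in HFpEF+Veh, 28.0 ± 4.3 in HFpEF+TYA-018 and 40.0 ± 7.2 in HFpEF+SGLT2i. All 8 HFpEF+Veh libraries (26.1 to 34.5) lay above all non_failing libraries (17.7 to 24.5). This did not rest on V2523, without which the vehicle mean was 29.6 ± 2.4. Of the HFpEF+SGLT2i libraries, 9 of 11 lay above the highest vehicle library, and of the HFpEF+TYA-018 libraries none did and 5 of 11 lay below the lowest. Among the phosphatases, Pdp2 relative to Pdp1 was 0.45 ± 0.06 in non_failing, 0.40 ± 0.09 in HFpEF+Veh, 0.50 ± 0.04 in HFpEF+TYA-018 and 0.60 ± 0.06 in HFpEF+SGLT2i, where 10 of 11 libraries lay above the highest vehicle library. Ratios were formed after the levels had been seen and were not tested, and a ratio of transcripts is not a ratio of enzyme activities.

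**Figure D5:**
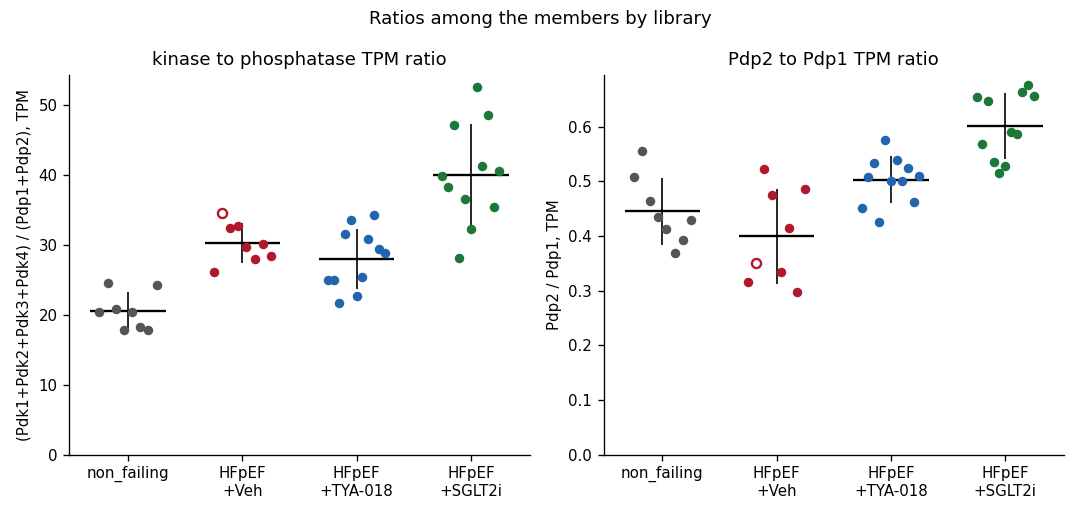
Ratio of summed kinase to summed phosphatase TPM (left) and of Pdp2 to Pdp1 TPM (right), 1 point per library, by group. Horizontal lines are means, vertical lines ± 1 SD, and the open point is HFpEF+Veh V2523. The kinase ratio does not overlap between HFpEF+Veh (26.1 to 34.5) and non_failing (17.7 to 24.5).

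The target of these enzymes, the PDH complex itself, was called in no comparison. Its 5 subunit genes (Pdha1, Pdhb, Dlat, Dld and Pdhx) had a median log2 difference of -0.20 in HFpEF+Veh against non_failing, 0.27 with TYA-018 and 0.22 with SGLT2i against vehicle, where the median of all genes tested was 0.01, -0.01 and 0.01. Pdha1, named for its role as the E1 alpha subunit that the kinases phosphorylate, was at 154 TPM in non_failing and 142 TPM in HFpEF+Veh (adjusted p = 0.589). Of the 5 genes of the related branched-chain keto acid dehydrogenase and its own kinase and phosphatase, 2 fell in HFpEF+Veh against non_failing, where 3.15% of all genes were called. Bckdhb, an E1 subunit, fell by 0.61 ± 0.10 (adjusted p = 0.000471), and Ppm1k, the phosphatase, by 0.61 ± 0.15 (adjusted p = 0.0207). Bckdhb also fell against non_failing in HFpEF+TYA-018 (-0.34 ± 0.10) and in HFpEF+SGLT2i (-0.37 ± 0.10), where 7.39% and 6.45% of all genes were called. Neither drug changed a gene of this list against vehicle.

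Of 11 genes of pyruvate supply and carboxylation, 2 fell in HFpEF+Veh against non_failing and none rose, with 3.15% of all genes called. They were Ldhb, the lactate dehydrogenase subunit of heart, by 0.45 ± 0.13 (adjusted p = 0.040), and Slc2a4, the insulin-responsive glucose transporter GLUT4, by 0.38 ± 0.11 (adjusted p = 0.0486). Slc2a4 was higher by 0.38 ± 0.10 in HFpEF+TYA-018 against vehicle (adjusted p = 0.0462), where 1.93% of all genes were called. This call was lost without V2523 (adjusted p = 0.0574). Against non_failing, Ldha, the lactate dehydrogenase subunit of muscle, and Pkm, a pyruvate kinase, rose in HFpEF+TYA-018 by 0.51 ± 0.12 and 0.24 ± 0.07, which makes 2 of 11 where 7.39% of all genes were called. No gene of the list was called with SGLT2i. The mitochondrial pyruvate carrier genes Mpc1 and Mpc2 were called nowhere.

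Pdk4 belongs by its known regulation to the PPAR target genes. Of 22 listed genes, Pdk4 not among them, 20 were tested. Against non_failing, 10 rose in HFpEF+Veh, 17 in HFpEF+TYA-018 and 18 in HFpEF+SGLT2i, and none fell, with 3.15%, 7.39% and 6.45% of all genes called. Their median log2 differences were 0.42, 0.64 and 0.69, against 0.01, 0.01 and 0.01 over all genes. In HFpEF+Veh, Acot2, a mitochondrial acyl-CoA thioesterase, rose by 0.81 ± 0.14, and Ech1, an enzyme of unsaturated fatty acid oxidation, by 0.51 ± 0.09. In HFpEF+TYA-018 and HFpEF+SGLT2i both genes also rose against non_failing, by 1.05 and 0.72 and by 1.26 and 0.71. Without V2523, 9 genes of the list were called in HFpEF+Veh against non_failing.

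Against vehicle, 1.93% of all genes were called with TYA-018 and 0.85% with SGLT2i. With each drug 1 gene of this list was called, and it was Ucp3 in both. It was 12.5 ± 2.3 TPM in HFpEF+Veh, 19.6 ± 5.4 in HFpEF+TYA-018 (log2 difference 0.79 ± 0.21, adjusted p = 0.0370) and 26.3 ± 6.7 in HFpEF+SGLT2i (1.17 ± 0.21, adjusted p = 0.00129). In HFpEF+Veh against non_failing, Ucp3 was not called (0.04 ± 0.22). All 20 genes had log2 differences above 0 in HFpEF+SGLT2i against vehicle, with a median of 0.31, and 16 did in HFpEF+TYA-018, with a median of 0.20. Of 12 factors known to regulate Pdk4, 1 was called, in 1 of the 6 comparisons: Rxra, the partner of the PPARs, rose by 0.18 ± 0.05 in HFpEF+SGLT2i against non_failing (adjusted p = 0.0265). There 6.45% of all genes were called, so 1 of 12 is near that share. Ppara, named for its role, was at 1.4 TPM in non_failing, 1.38 in HFpEF+Veh and 1.16 in HFpEF+SGLT2i.

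Among 11116 genes with a mean log2 CPM of at least 1, those whose log2 CPM over the 38 libraries was most like that of Pdk4 included Acot1 (Pearson r = 0.89), Acot2 (0.84), Retsat (0.83) and Hsd17b11 (0.81). Acot1 is a cytosolic acyl-CoA thioesterase, and Hsd17b11 is a lipid droplet protein. Within groups, with the group means taken out, r was 0.73, 0.60, 0.63 and 0.51. The values are descriptions over libraries that share group and depth differences. Acot1, chosen for this likeness, was 1.5 ± 0.82 TPM in non_failing, 4.35 ± 2.09 in HFpEF+Veh, 3.87 ± 1.61 in HFpEF+TYA-018 and 7.50 ± 4.06 in HFpEF+SGLT2i. The pattern most like Pdp1 was that of Mpc1 (r = 0.92), a subunit of the pyruvate carrier, followed by Bcap29 (0.90). Pdk1 was most like Rcan2 (0.96) and BC004004 (0.94), and Pdk2 most like Ppif (0.93), the mitochondrial cyclophilin D, and Prkaca (0.91). Pdp2 was most like Ppm1l (0.85) and Kcnj3 (0.84), Pdpr most like Ube3b (0.92) and Ubxn2a (0.90), and Pdk3 most like Trem2 (0.67), a receptor of macrophages, and Flrt2 (0.63).

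Among the members, Pdk1, Pdk2, Pdp1, Pdp2 and Pdpr varied together within groups, with r from 0.55 to 0.82 for their 10 pairs. Pdk4 stood at r = 0.29 to 0.56 with these 5 genes within groups, and Pdk3 at -0.36 to -0.20. The members also moved with depth to unequal extents, measured as log2 TPM against log2 total reads. The relation was strongest for Pdk1 (r = 0.59, permutation p = 0.00014, adjusted 0.00098, and rho = 0.58, permutation p = 0.00021, adjusted 0.00126), with r = 0.48 without the 2 libraries farthest from the median depth and, within groups, 0.20 in non_failing, 0.85 with vehicle, 0.15 with TYA-018 and 0.82 with SGLT2i. Pdp1 followed (r = 0.53, permutation p = 0.00061, adjusted 0.00213, and rho = 0.56, permutation p = 0.00036, adjusted 0.00126), with r = 0.51 without those 2 libraries and 0.53, 0.57, -0.09 and 0.81 within the groups in that order. For Pdp2, log2 TPM against log2 total reads gave r = 0.43 (permutation p = 0.00702, adjusted over 7 relations 0.0164) and Spearman's rho = 0.42 (permutation p = 0.00881, adjusted 0.0154). Without the 2 libraries farthest from the median depth, r was 0.37. Within groups r was 0.12 in non_failing, 0.67 in HFpEF+Veh, -0.20 in HFpEF+TYA-018 and 0.66 in HFpEF+SGLT2i, so the relation did not hold in every group. For Pdk4, r was 0.26 (permutation p = 0.115, adjusted 0.134) and rho 0.21 (permutation p = 0.198, adjusted 0.231), with 0.22 without the 2 farthest libraries and 0.01, 0.54, 0.23 and 0.47 within the groups in the same order. For Pdk2, r was 0.40 (permutation p = 0.0118, adjusted 0.0207) and rho 0.44 (permutation p = 0.00566, adjusted 0.0132), with 0.42 without those libraries. Pdpr gave r = 0.35 (permutation p = 0.0320, adjusted 0.0448) and rho = 0.24 (permutation p = 0.141, adjusted 0.198), with 0.16 without them. Within the groups, r was 0.15, 0.46, -0.20 and 0.76 for Pdk2 and 0.003, 0.89, -0.32 and 0.46 for Pdpr. Pdk3 had r = -0.03. The part of depth in the results was not tested. For markers of other cell types, 2 of 6 fibroblast markers rose and 3 of 8 cardiomyocyte markers fell in HFpEF+Veh against non_failing, where 3.15% of all genes were called. No cardiomyocyte or fibroblast marker was called in HFpEF+SGLT2i or HFpEF+TYA-018 against vehicle. All 8 hepatocyte markers were lower in both of those comparisons, and 0 of 8 with SGLT2i and 2 of 8 with TYA-018 once V2523 was left out. Of all genes, 0.85% were called with SGLT2i and 1.93% with TYA-018, and 0.0145% and 1.42% without V2523. The part of these markers in the results was not tested beyond leaving out libraries, V2523 among them.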

How the data were processed

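Left ventricle polyA RNA was sequenced in 38 libraries, 1 per mouse, and groups were taken from the sample titles. The authors quantified transcripts with Salmon 1.6.0, per the labels and the study's methods, and deposited expected counts, TPM and effective lengths per gene for 29564 genes, 7693 of them without a read. All deposited columns matched a sample title. The labels name a human genome build although the genes are mouse genes, and coordinates here are those of GRCm38. Expected counts were rounded and tested with the quasi-likelihood F test of edgeR 4.0.16 (R 4.3.3) after TMM scaling and the filterByExpr filter, with all 38 libraries and 4 groups in a single model and no covariates. P-values were adjusted by Benjamini-Hochberg over 13765 genes and called at 0.05. Error terms are SD over mice or SE of the fit. DESeq2 1.42.0, limma 3.58.1 on log2(TPM + 1), a length offset, library size alone, no filter, only the 2 groups compared and leaving out libraries were tried as alternatives. The fit was tested on simulated counts. Permutations were drawn with numpy 2.4.6, and scipy 1.17.1 gave the ranks and adjusted p-values of the relations with depth. Members and gene lists were chosen with earlier results of these data known. All 7 members are named, with genes of the lists that were called, the 3 with the lowest p in long lists, and the 2 genes most like each member, 5 for Pdk4. Genes that meet this rule but are withheld are not reported here.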

Additional observations from a re-analysis of the deposited data

Results flagged for a closer look

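The levels and kinase shares were checked in non_failing and HFpEF+Veh, the groups of 8, and groups of 11 were not checked. In 22 checks, 4 values from 3 libraries stood far from the rest of their group, where chance gives about 1 in 20. Pdpr was 4.3 TPM in non_failing V2503, and the next library of the group held 2.73 TPM. Pdpr was 5.68 TPM in HFpEF+Veh V2532, against 1.62 TPM in the next library. In the same library, Pdk1 made up 11.0% of the summed kinase TPM, against 8.54% in the next. Pdk3 made up 0.650% of that sum in HFpEF+Veh V2530, against 0.356% in the next, from a gene with few reads. V2532 was also the deepest library of its group, at 57.7 M reads, and held the highest level of 5 of 7 skeletal muscle markers in its group. The part of either in these values was not tested.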

How the results depend on the processing

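The direction of the called members held under each alternative. Of 294 log2 differences under other tools, scalings, filters and sample sets, 269 kept their direction and their side of the threshold, and of 1596 from leaving out 1 library, 1516 did. Every difference that changed sign was one that passed no test. The cause of the changes below was not tested, except that fewer libraries enter where a library or group is left out.

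Members called in HFpEF+Veh against non_failing were 1 of 7 in the main test, 0 with a length offset, with no filter on low counts, with only the 2 groups or without V2523, and 2 without V2523 and V2532 together, a setting chosen after seeing the data. Leaving out 1 library gave 0 to 2. The 1 member called in the main test was Pdk4. With edgeR, the 2 called without V2523 and V2532 were Pdp2 (adjusted p = 0.0136) and Pdpr (adjusted p = 0.0457). Pdk4 was not called there (adjusted p = 0.162). Without V2532 alone, Pdp2 and Pdpr were also called and Pdk4 was not. In HFpEF+TYA-018 against HFpEF+Veh the count of 1 became 0 with limma, and 0 to 1 without single libraries. In HFpEF+SGLT2i against HFpEF+Veh the count of 2 became 0 with limma or only the 2 groups, 1 with library size alone or without V2523, and 1 to 2 without single libraries. Between the drugs, DESeq2 called 1. In HFpEF+TYA-018 against non_failing the count of 1 became 2 with only the 2 groups or without V2523 and V2532 together, and 1 to 2 without single libraries.

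Sign changes in log2 differences were these. In HFpEF+Veh against non_failing, Pdk1 was -0.14 without V2523 and V2532, and without single libraries Pdk1 ran from -0.060 to 0.15 and Pdk3 from -0.035 to 0.18. In HFpEF+TYA-018 against HFpEF+Veh, Pdpr was 0.10 without V2523 and V2532 and ran from -0.41 to 0.13 without single libraries, and Pdk3 from -0.078 to 0.14. In HFpEF+SGLT2i against HFpEF+Veh, Pdp1 was 0.027 with a length offset, 0.014 without V2523 and 0.082 without V2523 and V2532, and ran from -0.089 to 0.033 without single libraries. Pdpr there was -0.0020 with DESeq2, -0.0054 with limma, -0.063 with a length offset, -0.070 with library size alone, -0.0080 with no filter, -0.0052 with only the 2 groups and -0.071 without V2523, and ran from -0.19 to 0.45, and Pdk3 from -0.18 to 0.062. Between the drugs, Pdk2 was -0.034 with limma and -0.015 with library size alone, and ran from -0.014 to 0.067, Pdk1 from -0.11 to 0.030 and Pdp2 from -0.088 to 0.021. Against non_failing, Pdk3 ran from -0.021 to 0.16 in HFpEF+TYA-018 and from -0.097 to 0.087 in HFpEF+SGLT2i, where it was -0.020 with a length offset.

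Counts over all genes moved more. In HFpEF+TYA-018 against HFpEF+Veh, 266 genes were called in the main test, 402 with DESeq2, 42 with limma, 618 with no filter, 58 with only the 2 groups and 90 without V2523 and V2532. Library size alone gave 1096, with 25 higher and 1071 lower against 115 and 151 in the main test, and moved the median of all genes to -0.14. In HFpEF+SGLT2i against HFpEF+Veh, 117 became 457 with no filter, 3 with only the 2 groups, 20 without V2523 and V2532, 2 without V2523 and 0 with limma. Against non_failing, 433 in HFpEF+Veh became 916 without V2523 and V2532, and limma gave 597 for 1017 in HFpEF+TYA-018 and 527 for 888 in HFpEF+SGLT2i. Between the drugs a length offset called 5 genes and DESeq2 185. No paired analysis was possible because the mouse numbers differ in every group. Pdk3 rests on 12 to 78 reads per library.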

Other observations

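Genes that respond to factors known to act on pyruvate dehydrogenase kinase transcripts were also tested with edgeR, as were clock genes. In comparisons with non_failing, 3.15% of all genes were called in HFpEF+Veh, 7.39% in HFpEF+TYA-018 and 6.45% in HFpEF+SGLT2i. Of 12 target genes of hypoxia-inducible factor, none was called in HFpEF+Veh against non_failing, and 2 rose in HFpEF+TYA-018 against non_failing. These were Egln3, an oxygen-sensing hydroxylase (log2 fold change 0.88, adjusted p = 0.0122), and Bnip3, a mitophagy receptor (0.46, adjusted p = 0.0176). Of 10 glucocorticoid responsive genes, Mt1, a metallothionein, rose against non_failing in HFpEF+TYA-018 (0.63, adjusted p = 0.0137) and in HFpEF+SGLT2i (0.53, adjusted p = 0.0447).

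Of 8 FoxO target genes of muscle, 7 were tested and none was called in any comparison. Their median log2 difference was 0.16 in HFpEF+SGLT2i against HFpEF+Veh, where all 7 were above 0, and 0.20 in HFpEF+TYA-018 against HFpEF+Veh. Of 14 clock genes, Nr1d1, a repressor of the clock, fell in HFpEF+TYA-018 against non_failing (-0.76, adjusted p = 0.0322), and Hlf, a clock output factor, fell in HFpEF+SGLT2i against non_failing (-0.62, adjusted p = 0.0382). In both, 1 of 14 is near the share called over all genes. No gene of these 4 lists was called in a comparison of a drug with vehicle.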
